A study of Homo sapiens with 24 samples.

Results

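The genes described here are 10 regulators and markers of the epithelial-mesenchymal transition (EMT): the transcription factors SNAI1, SNAI2, ZEB1, ZEB2, TWIST1, TWIST2 and PRRX1, the intermediate filament vimentin (VIM), and the cadherins CDH1 (E-cadherin) and CDH2 (N-cadherin). They were chosen by name, and their data are all genomic regions that the authors' annotation places on or beside 1 of them, out of 21569 genes named in the 6 deposited tables. H3K27Ac ChIP-seq, which reads where histone H3 is acetylated on lysine 27, was performed in 2 lines of human breast epithelium, MCF10A (10A) and MCFDCIS (DCIS), each with ANCO1 knockdown (shANCO1) or a control hairpin (shCTRL, named shGFP in the tables). ANCO1 is the product of ANKRD11. The labels give 24 libraries in 8 groups of 3, 4 immunoprecipitated groups and 4 input groups, but the tables give 1 value a region for all 3 libraries of a group together.

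All 4 cell populations were infected with lentivirus and selected in puromycin, with no cloning step described. The H3K27Ac data come from 1 shANCO1 hairpin line in each background, so a change caused by that hairpin and one caused by ANCO1 loss cannot be told apart. 10A is a non-tumorigenic basal-like line, and DCIS is a derivative of it that carries an oncogene and forms ductal carcinoma in situ-like lesions in mice, so the lines share an origin. The labels do not say whether the 3 libraries of a group came from separate cultures, so the FDRs measure only the spread between these libraries, which may be technical. The tables hold no read counts, and the depth behind each value is unknown.

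EMT is the program by which epithelial cells loosen their junctions and take on the shape and motility of mesenchymal cells. The SNAI and ZEB zinc finger proteins bind E-box sequences and repress CDH1, the TWIST and PRRX1 factors turn on mesenchymal genes, and a switch from CDH1 to CDH2 with a rise in VIM is the usual sign of the process. H3K27Ac marks active promoters and enhancers, and its level is a measure of chromatin, not of RNA or protein.

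Each row of the tables is a region of neighboring windows joined by the authors, with a log2 fold change for its representative window, a false discovery rate (FDR) and a direction. A region is written here as up or down where the authors' FDR is under 0.05 and their direction says so. More cells carrying the mark and more mark per cell cannot be told apart in such bulk samples. In the comparison between shANCO1 and shCTRL in 10A, the 10 genes were named by 40 of 50284 regions, which span 59 kb, and 23 of them (57.5%) were up and 0 down. Over all regions of that table, 43.6% were up and 0.225% down. Of the 10 genes, 9 had at least 1 region up, where 74.3% of all named genes did, and 0 had a region down, where 0.445% of all genes did. In DCIS, 35 of 44790 regions (35.7 kb) named a member, with 5 up (14.3%, against 23.6% of all regions) and 4 down (11.4%, against 4.86%). There, 4 of the 10 genes had a region up (32.2% of all genes) and 1 had a region down (7.16% of all genes). The gains in 10A lay at all members but SNAI1, in a table where most genes had a gain. Those in DCIS lay at SNAI2, TWIST1, PRRX1 and CDH1, with all 4 losses at SNAI1. None of these shares was tested against the rest of the table.

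The zero of the log2 scale matters for these counts. The median log2 fold change of all regions was 0.76 in 10A and 0.52 in DCIS, and 91.8% of the 10A regions and 66.9% of the DCIS regions were above 0. The member regions had medians of 0.98 in 10A and 0.43 in DCIS. Above their table's own median lay 27 of 40 member regions in 10A and 15 of 35 in DCIS. Of the 23 member regions up in 10A, only 2, at the TWIST1 start site and downstream of TWIST2, were at least 1 log2 unit above that median. A general rise in acetylation and the scaling between libraries cannot be told apart from these tables.

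**Figure D1:**
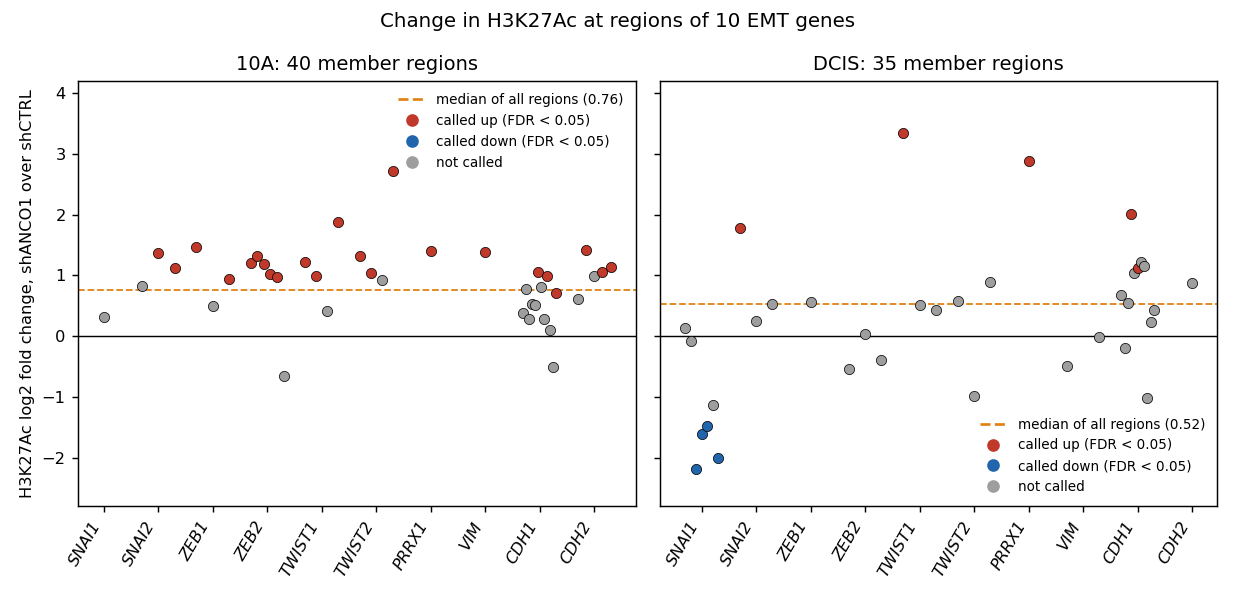
H3K27Ac log2 fold change (shANCO1 over shCTRL, vertical axis) of each member region, grouped by gene and ordered by position, in 10A (left) and DCIS (right); each point is 1 region from the authors' tables and the dashed line is the median of all regions. In 10A, 23 of 40 points are up and none down, while in DCIS 5 of 35 are up and the 4 down points all belong to SNAI1.

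Marking itself was read from the tables of each immunoprecipitated group over input, which hold almost only enriched regions: 100% of the listed regions passed an FDR of 0.05 in each of the 4 tables, to 3 digits. Which input libraries each group was set against is not stated. The 10A shCTRL table listed 12 regions at 5 members (SNAI2, ZEB2, TWIST1, TWIST2 and CDH1). In the 10A shANCO1 table, 26 regions at 9 members were listed, all but SNAI1. The DCIS tables each listed 6 regions at 3 members, SNAI1, ZEB2 and CDH1 in shCTRL and TWIST1, PRRX1 and CDH1 in shANCO1. CDH1 was thus the member listed in all 4 groups. The 10A shANCO1 table is also the longest as a whole, with 28607 regions against 15490 for 10A shCTRL, 16692 for DCIS shANCO1 and 15482 for DCIS shCTRL, and a gene absent from a table was not thereby shown to be unmarked. The share of all genes listed over input in each group was not computed. The rise from 5 to 9 members in 10A therefore has no such share beside it and is not read as particular to these genes. Of the 23 member regions up in 10A, 18 overlapped a region listed in shANCO1 and 9 one listed in shCTRL. For all up regions of that comparison these shares were 70.0% and 34.6%.

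**Figure D2:**
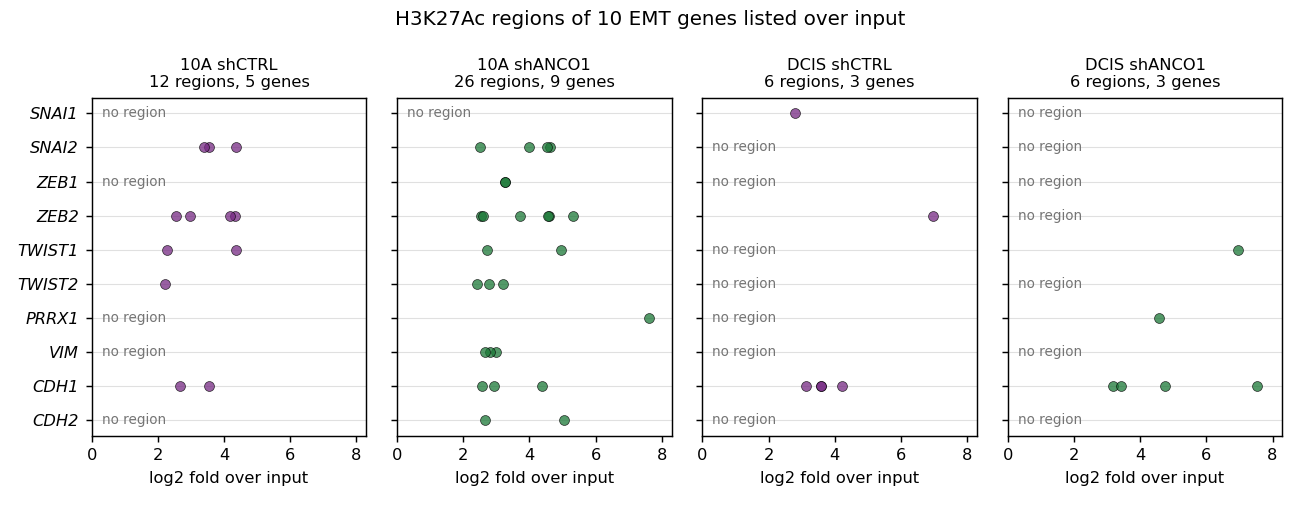
H3K27Ac log2 fold over input (horizontal axis) of every member region listed for each of the 4 immunoprecipitated groups, 1 point a region; "no region" marks a gene with none. The 10A shANCO1 panel holds 26 points at 9 genes, the 10A shCTRL panel 12 at 5, and each DCIS panel 6 at 3.

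SNAI1 (chr20:49982980-49988886, plus strand, GRCh38), the founding SNAIL repressor of CDH1, was the only member with a loss. In DCIS it was named by 7 regions. The region over its start site, chr20:49982901-49984800, fell by 2.19 on the log2 scale, a 4.57-fold drop, with 17 of 18 windows down (FDR 1.88e-05). A second region in the gene body (chr20:49985301-49985500) fell by 1.62 (FDR 0.0125) and another (chr20:49986901-49987300) by 1.48 (FDR 0.0342), while the region beyond the 3′ end (chr20:49989301-49990300) fell by 2.01 with 8 of 9 windows down (FDR 0.0180). The region at the last exon had a log2 fold change of -1.13 and did not pass (FDR 0.0930). The 2 regions upstream had values of 0.13 and -0.07, with FDRs of 0.920 and 0.962. From the start site to beyond the 3′ end, all 5 regions thus had negative values, 4 of them past the threshold. The DCIS shCTRL table listed the start of the gene as marked (chr20:49983001-49983900, 2.78 log2 over input, FDR 4.73e-11), and neither shANCO1 table listed any SNAI1 region. Of the 4 losses, 1, at the start site, overlapped a region listed in DCIS shCTRL, where 50.1% of all DCIS regions down did. The region beyond the 3′ end overlapped no region listed over input in either DCIS group. In 10A, SNAI1 was named by 1 region at the start site, with a log2 fold change of 0.32 (FDR 0.455), and by no region over input. Below is the middle of the downstream region that was lower in DCIS, shown because it lies outside the gene (chr20:49989651-49989950, plus strand); the 3 motif words given further on are absent from these 300 bases.
SNAI1 downstream element: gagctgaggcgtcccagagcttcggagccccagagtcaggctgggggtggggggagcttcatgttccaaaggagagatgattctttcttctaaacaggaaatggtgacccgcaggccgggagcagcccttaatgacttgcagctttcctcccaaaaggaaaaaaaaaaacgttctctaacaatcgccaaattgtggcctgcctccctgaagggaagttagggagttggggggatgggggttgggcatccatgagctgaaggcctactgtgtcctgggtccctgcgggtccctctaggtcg

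SNAI2 (SLUG, chr8:48917598-48921740, minus strand), a repressor of the same family that basal mammary epithelial cells express, was marked and higher with knockdown in 10A. The region over its start site, chr8:48917301-48921600, had a log2 fold change of 1.37 (2.58-fold), with 39 of 40 windows up (FDR 3.25e-07). Its upstream neighbor rose by 1.12 with 27 of 38 windows up (FDR 4.97e-05). The small region past the gene's 3′ end had a value of 0.83 and an FDR of 0.0561. Marking over input reached 4.37 in 10A shCTRL (3 regions) and 4.63 in 10A shANCO1 (4 regions). No SNAI2 region was listed over input in either DCIS group. The DCIS region over the start site, chr8:48919301-48922500, was called up at 1.78 with an FDR of 0.0476, but only 1 of its 22 windows was up. This call sat at the edge of the threshold, and the other 2 DCIS regions had values of 0.24 and 0.53 (FDRs 0.805 and 0.482).

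ZEB1 (chr10:31318495-31529814, plus strand) is a zinc finger and homeodomain repressor of epithelial genes. Its start-site region in 10A (chr10:31318001-31319800) rose by 1.46, a 2.75-fold change, with 14 of 17 windows up (FDR 5.33e-05). An intronic region 107 kb into the gene (chr10:31425801-31427400) rose by 0.95 (FDR 0.00907), and another intronic one had a value of 0.50 (FDR 0.373). Both risen regions were listed over input in 10A shANCO1, at 3.25 and 3.26, and the 10A shCTRL table listed none. In DCIS, the value of the 1 region next to the start site was 0.57 (FDR 0.759), and neither group listed a ZEB1 region over input. The authors' annotation also places the antisense gene ZEB1-AS1 on the start-site region, and acetylation of the paired promoters cannot be told apart.

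The 250 bases before the ZEB1 start site are shown because they lie in the risen region and hold the E-box word CACCTG or its reverse complement CAGGTG in 2 places, written in capitals (RefSeq, GRCh38.p14, chr10:31318966-31319215, plus strand). That word was found in 17.5% of all 35116 RefSeq promoter windows of this length.
ZEB1 promoter: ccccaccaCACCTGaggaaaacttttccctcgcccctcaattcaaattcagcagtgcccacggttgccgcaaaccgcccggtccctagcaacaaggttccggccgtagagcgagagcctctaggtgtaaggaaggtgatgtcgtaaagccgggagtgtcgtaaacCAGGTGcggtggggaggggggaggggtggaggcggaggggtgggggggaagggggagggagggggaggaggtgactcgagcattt

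ZEB2 (chr2:144364364-144521057, minus strand), the paralog of ZEB1, had 5 of 6 regions up in 10A. The lowest FDR was reached beyond the 3′ end of the gene (chr2:144357601-144359900), where H3K27Ac rose by 1.32 (FDR 0.000122), and a second downstream region rose by 1.20 (FDR 0.00713). The intronic regions at chr2:144413001-144415800 and chr2:144480801-144482500 rose by 1.19 and 1.03 (FDRs 0.00413 and 0.0211), although only 1 of 24 and 2 of 16 windows were up. A region 1.62 kb inside the main start site (chr2:144516401-144518500), which the annotation shares with ZEB2-AS1, rose by 0.97 (FDR 0.0137). No region in either line lay within 1 kb of the ZEB2 start site of the MANE Select transcript, the reference transcript chosen for each gene. The DCIS values were -0.55, 0.03 and -0.39, with FDRs of 0.974, 0.994 and 0.632, so no ZEB2 region was called there. The DCIS shCTRL table listed an intronic region (chr2:144414001-144414500) at 6.96 log2 over input and the DCIS shANCO1 table did not list it, while the direct comparison of the region around it gave the value of -0.55 above. That absence from 1 table was therefore not matched by a call in the direct comparison.

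TWIST1 (chr7:19020991-19117636, minus strand) is a basic helix-loop-helix factor that drives mesenchymal programs in development. In 10A, the region over its start site (chr7:19114301-19117900) rose by 1.88, or 3.67-fold, with 21 of 35 windows up (FDR 0.000313). A region at the far 3′ end of its longest annotated transcript (chr7:19019101-19021600, 96.0 kb from the start site) rose by 0.98 with 22 of 24 windows up (FDR 0.000902). One farther downstream, between HDAC9 and TWIST1, rose by 1.21 (FDR 0.0220), and an intronic region had a value of 0.42 (FDR 0.456). In DCIS the highest value lay at the distal region instead. There, chr7:19020301-19020900 rose by 3.35, or 10.2-fold, with all 5 windows up (FDR 9.14e-08), and the 2 regions at the start of the gene had values of 0.43 and 0.51 with FDRs of 0.778 and 0.575. The distal site was listed over input in 10A shCTRL (4.37), 10A shANCO1 (4.97) and DCIS shANCO1 (6.97, from 1 window), but not in DCIS shCTRL. This distal region carried the highest log2 fold change of any member region in DCIS. The DCIS region names TWIST1 only as a neighbor and lies past the 3′ end of the annotated gene, 96.7 kb from the start site.

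TWIST2 (chr2:238848032-238910534, plus strand), the close relative of TWIST1, had 3 of 4 regions up in 10A. The start-site region (chr2:238847401-238849900) rose by 1.32 with 12 of 22 windows up (FDR 0.00528) and an intronic region 15.4 kb inside the gene rose by 1.04 (FDR 0.00102). The highest log2 fold change of all 40 member regions in 10A, 2.73 or 6.62-fold, was at a 500-base region past the 3′ end of TWIST2 (chr2:238914301-238914800), with all 4 windows up (FDR 5.12e-07). This downstream region was not listed over input in either 10A group. The DCIS regions of TWIST2 had values of 0.58, -0.99 and 0.89 (FDRs 0.636, 0.166 and 0.112), and no DCIS group listed TWIST2 over input.

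PRRX1 (chr1:170662728-170739421, plus strand) is a paired-related homeobox factor of limb and craniofacial mesenchyme that can induce EMT. It was named by a single region in each line, at the same intronic place 43.3 kb from the start site in 10A and 43.7 kb in DCIS. In 10A, chr1:170707401-170709400 rose by 1.40 (2.64-fold) with 18 of 19 windows up (FDR 0.000119). In DCIS, chr1:170707801-170709300 rose by 2.88 (7.36-fold) with 13 of 13 windows up (FDR 1.15e-08). The element was listed over input in shANCO1 in both lines, at 7.62 in 10A and 4.58 in DCIS, and in shCTRL in neither. The promoter of PRRX1 had no region in any of the 6 tables. The middle of this element is shown (hg38, chr1:170708451-170708750, plus strand), with the 1 E-box word in these 300 bases in capitals. It was picked as the single place at a transcription factor gene gaining in both lines with nearly all windows up and unlisted in shCTRL. The AP-1 word given further on lies in the middle 500 bases of the 10A region, outside the bases shown. That word was absent from the middle 500 bases of the DCIS region.
PRRX1 intronic element: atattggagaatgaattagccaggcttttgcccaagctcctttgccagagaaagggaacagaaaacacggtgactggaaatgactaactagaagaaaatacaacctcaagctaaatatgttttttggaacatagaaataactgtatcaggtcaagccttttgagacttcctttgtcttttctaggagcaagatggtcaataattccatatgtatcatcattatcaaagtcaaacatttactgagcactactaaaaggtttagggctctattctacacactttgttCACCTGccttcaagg

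VIM (chr10:17228241-17237593, plus strand) encodes the intermediate filament of mesenchymal cells, which cultured mammary basal cells also contain. A broad 10A region over the start site and first part of the gene (chr10:17227601-17231500) rose by 1.39, or 2.62-fold, with 33 of 36 windows up (FDR 6.37e-05). It was listed over input in 10A shANCO1 as 3 short regions of 2.66 to 2.99 and not in 10A shCTRL. In DCIS a region covering the downstream part of this stretch (chr10:17229501-17231300), from 1.26 kb past the start site, had a log2 fold change of -0.01 with 0 of 17 windows up or down (FDR 0.998), and a smaller one had a value of -0.50 (FDR 0.500). VIM was listed over input in neither DCIS group. VIM-AS1, an antisense gene, is annotated on the same region. The 250 bases before the VIM start site, inside the risen 10A region, are given as the promoter of the mesenchymal marker (RefSeq, GRCh38.p14, chr10:17227991-17228240, plus strand), and hold none of the 3 motif words.
VIM promoter: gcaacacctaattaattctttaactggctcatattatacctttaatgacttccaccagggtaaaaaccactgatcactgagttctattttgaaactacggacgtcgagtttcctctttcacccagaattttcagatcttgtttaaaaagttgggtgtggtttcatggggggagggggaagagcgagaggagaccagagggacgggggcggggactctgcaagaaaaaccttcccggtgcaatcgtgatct

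CDH1 (chr16:68737292-68835537, plus strand), the epithelial adhesion molecule whose loss defines EMT, was named by 12 regions in 10A and 11 in DCIS, the most of any member. Its promoter region, 109 bases from the start site (chr16:68737401-68738800) had a log2 fold change of 0.77 in 10A (FDR 0.347) and 0.55 in DCIS (FDR 0.683), with 0 of 13 windows up in either line. No CDH1 region was down in either line. In 10A, intronic regions 16.9 kb and 52.3 kb from the start site rose by 1.06 (FDR 0.00965) and 0.99 (FDR 0.0258). One more, called up at 0.71 (FDR 0.00259), lies past the 3′ end of CDH1 on the promoter of TANGO6, names CDH1 only as a neighbor, and was 0.05 below the median of all 10A regions. The other 9 regions in 10A had values from -0.51 to 0.81. In DCIS, an intronic region 4.81 kb from the start site (chr16:68742101-68745400) rose by 2.01, or 4.04-fold, with 18 of 24 windows up (FDR 0.00225). The region at 16.7 kb (chr16:68754001-68758000), which overlaps the 10A region that gained, rose by 1.11 with 21 of 35 windows up (FDR 0.0123). Among the other 9 DCIS regions values ran from -1.01 to 1.21. The 10A tables listed CDH1 over input in 2 regions in shCTRL (2.67 and 3.54) and 3 in shANCO1 (2.56 to 4.38). The shCTRL region at chr16:68744501-68744800 (2.67) had no counterpart in 10A shANCO1, while its direct region gave 0.54 (FDR 0.606). The DCIS gain at chr16:68742101-68745400 overlapped no region listed over input in either DCIS group. Marking over input was listed at or next to the same 4 places in both DCIS groups, at 3.13 to 4.21 in shCTRL and 3.19 to 7.52 in shANCO1, the highest of these at the TANGO6 promoter. The direct DCIS region there (chr16:68843401-68844400) gave only 0.44 (FDR 0.491), with 0 of 9 windows up. That value was 0.09 below the median of all DCIS regions.

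CDH2 (chr18:27932879-28177946, minus strand), the cadherin of mesenchymal and neural cells, had 5 regions in 10A. A region 171 bases before its start site (chr18:28177301-28177800) rose by 1.15 with 4 of 4 windows up (FDR 0.0146). Intronic regions rose by 1.41 from a single window (FDR 0.00223) and by 1.06 with 3 of 9 windows up (FDR 0.0388). The widest intronic region had a value of 0.99 and an FDR of 0.0827, and the last one 0.61 (FDR 0.167). Over input, 2 intronic regions were listed in 10A shANCO1, at 5.05 and 2.66, and none in 10A shCTRL. CDH2 had 1 region in DCIS, deep in the gene, at 0.88 (FDR 0.138), and no DCIS marking over input.

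**Figure D3:**
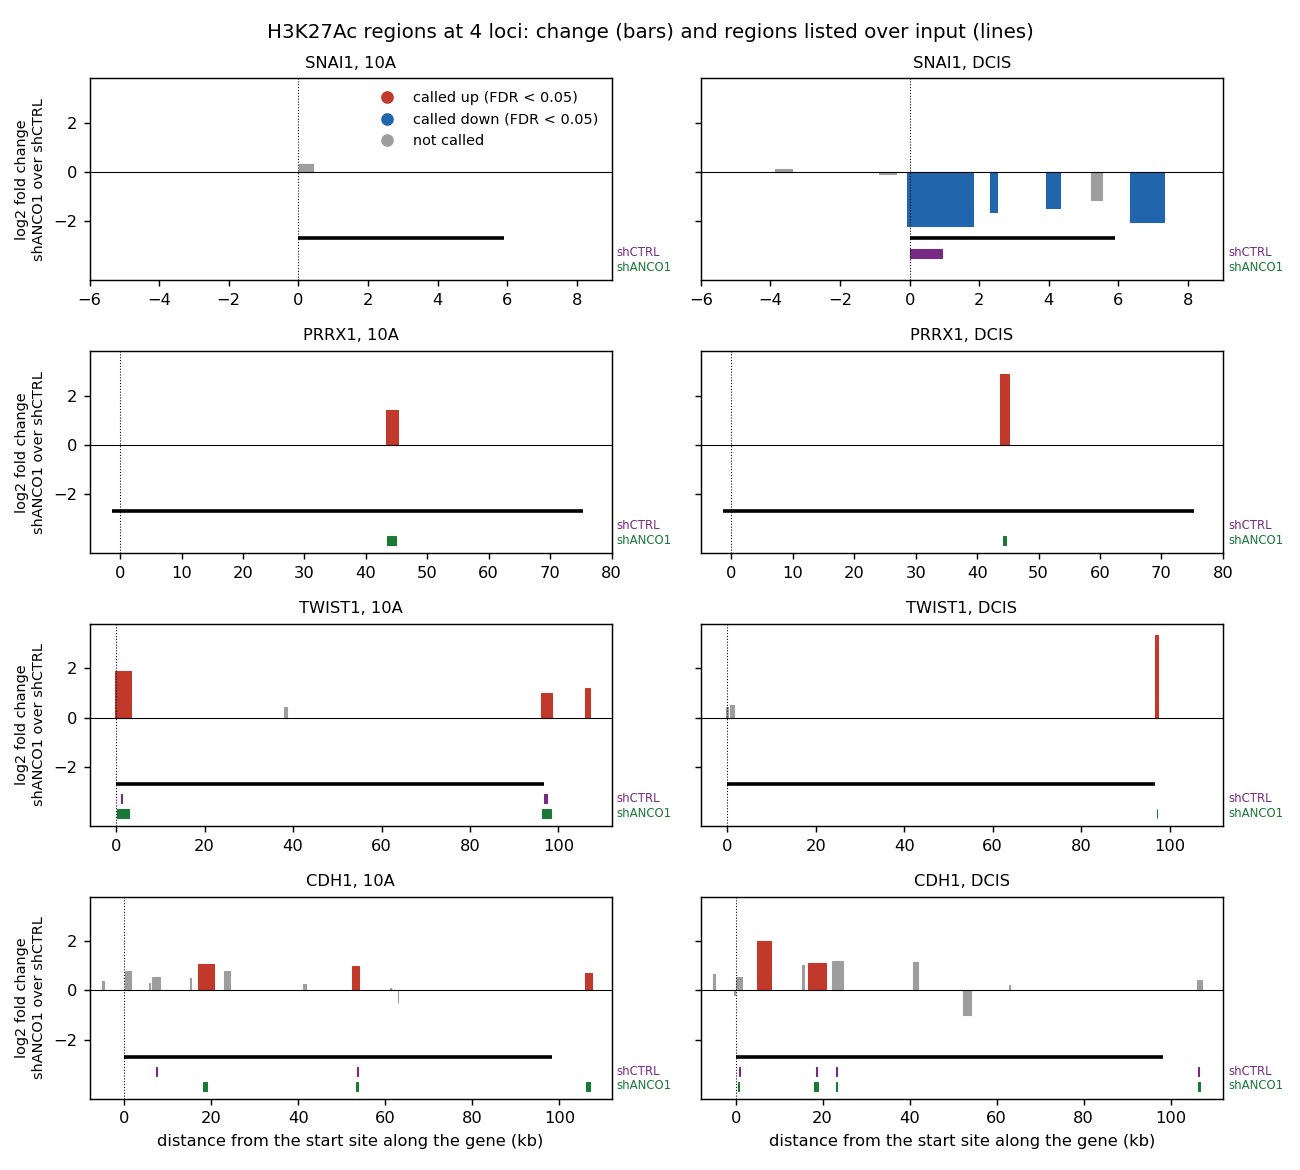
H3K27Ac log2 fold change of shANCO1 over shCTRL (vertical axis) against distance from the MANE Select start site along each gene (kb, horizontal axis) at SNAI1, PRRX1, TWIST1 and CDH1 in 10A (left) and DCIS (right). Bars are regions of the direct comparison, the black line is the gene, and purple and green blocks are regions listed over input in shCTRL and shANCO1; SNAI1 falls from its start site onward in DCIS, and the PRRX1 element 43.3 kb inside the gene and the TWIST1 element 96.0 kb from the start gain in both lines.

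Overlapping regions were then set side by side between the lines. There were 28 pairs of a 10A and a DCIS member region sharing at least 1 base, at 9 of the genes, and a wide region could enter several pairs. In 5 pairs, at SNAI2 (2 pairs), TWIST1, PRRX1 and CDH1, both regions were up (17.9%, against 16.7% of all 33865 overlapping pairs of regions in the 2 tables). The 2 SNAI2 pairs hold the same DCIS region, called up at an FDR of 0.0476. Another 14 (50.0%, against 36.1% of all pairs) were up in 10A without a call in DCIS, among them VIM, ZEB1, the TWIST2 promoter and the TWIST1 promoter. At CDH1, 2 pairs (7.14%, against 12.1%) were up in DCIS without a call in 10A, and 6 (21.4%, against 32.4%) were called in neither line. The remaining pair was SNAI1, at 0.32 in 10A and -2.19 in DCIS, and 1.49% of all pairs were down in DCIS without a call in 10A. Relative to each table's median, the PRRX1 element stood at 0.64 in 10A and 2.36 in DCIS, and the TWIST1 distal element at 0.22 and 2.83. Differences between the lines were not tested, since the tables give no value per library.

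**Figure D4:**
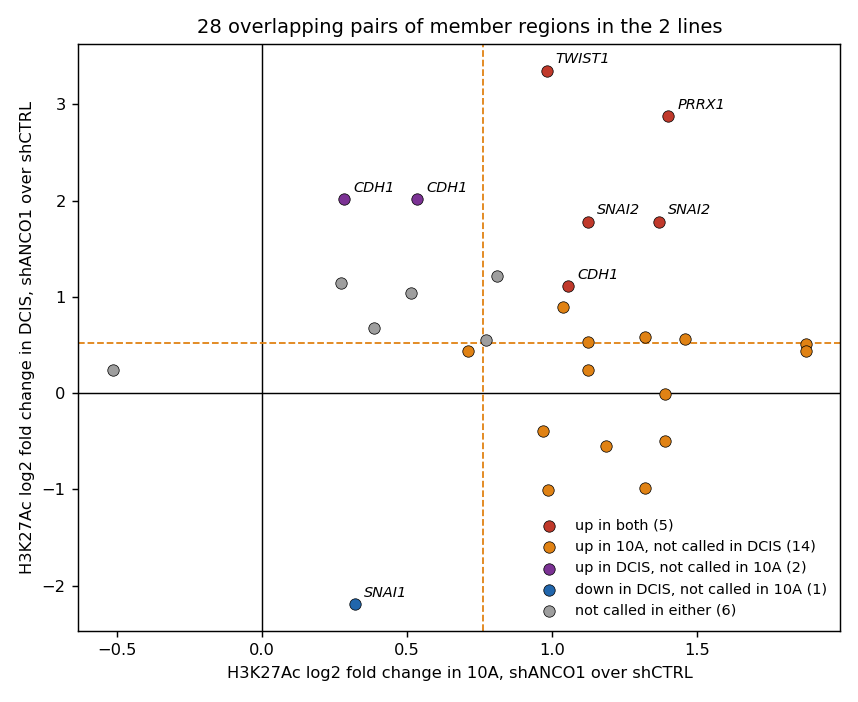
H3K27Ac log2 fold change (shANCO1 over shCTRL) in 10A (horizontal axis) against DCIS (vertical axis) for the 28 overlapping pairs of member regions, colored by call (the authors' FDR under 0.05 and their direction), with the median of all regions of each table dashed. TWIST1 and PRRX1 lie highest in DCIS at 3.35 and 2.88, SNAI1 lies lowest at -2.19, and 14 pairs are up in 10A with no call in DCIS.

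The calls were also read by position. In 10A, 5 members had a region over the start site that was up (SNAI2, ZEB1, TWIST1, TWIST2 and VIM), and CDH2 had one within 1 kb. Over all genes named in that table with a MANE Select start site, 44.3% had a region up over it, so 5 of 10 was near that share, and 0.00713% had one down, as 0 members did. In DCIS, SNAI2 was the 1 member with a start-site region up (3.53% of all genes). That call was at the edge of the threshold (FDR 0.0476, 1 of 22 windows up). SNAI1 was the 1 member with a start-site region down (0.881% of all genes). The DCIS gains at TWIST1, PRRX1 and CDH1 all lay away from the start site. These shares were not tested.

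The 3 motif words were the AP-1 word TGAGTCA, the TEAD word GGAATG and the E-box word CACCTG, each counted on both strands in the 500 bases at the middle of a region. None of the 3 contains another. In 10A, 7 of 40 member regions (17.5%) held the AP-1 word, against 18.3% of all regions. The TEAD word was in 6 of 40 (15.0%, against 27.9% of all regions) and the E-box word in 15 of 40 (37.5%, against 29.8%). Regions up numbered 6 of the 7 with the AP-1 word, 2 of the 6 with the TEAD word and 6 of the 15 with the E-box word, where 48.4%, 42.5% and 42.4% of all 10A regions with that word were up. In DCIS, the AP-1 word was in 3 of 35 member regions (8.57%, against 15.4%), the TEAD word in 5 (14.3%, against 27.1%) and the E-box word in 16 (45.7%, against 36.6%). Of these, 0, 1 and 3 were up, where 39.1%, 26.2% and 24.4% of all DCIS regions with the word were. CDH1 alone gave 8 of the 15 regions with an E-box word in 10A and 9 of the 16 in DCIS. A word in a window is a description and was not tested as a binding site.

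Other genes of the pathway were read from lists, whose counts stand beside the 74.3% of all genes with a region up in 10A and the 32.2% in DCIS. For regions down, these shares of all genes were 0.445% in 10A and 7.16% in DCIS. Of 12 other EMT transcription factors, 10 had a region up in 10A and 0 one down, led by ETS1 (1.24, FDR 7.38e-07) and SOX4 (1.49, FDR 8.17e-06). In DCIS, 2 of the 12 had a region up, HMGA2 (2.48, FDR 1.28e-05) and ETS1 (1.62, FDR 0.000593). Regions down in DCIS were found at 3 of them, among them the developmental forkhead factors FOXC1 (-1.68, FDR 0.00285), which its region names as a neighbor, and FOXC2 (-1.69, FDR 0.00710). The share of this list's regions that were down in DCIS was 16.3%, beside 11.4% for the 10 members and the 4.86% of all regions given above.

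Of 13 mesenchymal genes other than VIM and CDH2, 10 had a region up and 0 one down in 10A, with the lowest FDRs at the fibronectin receptor subunit ITGA5 (1.88, FDR 3.23e-08) and fibronectin itself, FN1 (1.49, FDR 7.66e-06). In DCIS 6 of the 13 had a region up, among them the hyaluronan receptor CD44 (1.40, FDR 0.00174). Another 2 had a region down, the cadherin CDH11 (-1.92, FDR 0.00377) and the collagen cross-linking enzyme LOX (-1.43, FDR 0.0321). Regions up made up 62.3% of this list's regions in 10A, beside 43.6% of all regions, and 25.6% in DCIS, near the 23.6% of all regions. Regions down made up 6.98% of them in DCIS, beside 4.86% of all regions.

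Epithelial junction genes were read in the same way. Of 13, 11 had a region up and 0 one down in 10A, with the tight junction protein F11R (1.17, FDR 3.00e-06) and alpha-catenin CTNNA1 (1.07, FDR 3.37e-05) lowest in FDR. In DCIS 8 of 13 had a region up, led by F11R (3.06, FDR 4.96e-15) and P-cadherin CDH3 (2.49, FDR 3.53e-07), the neighbor of CDH1. CTNNA1 (-1.30, FDR 0.0192), which also had regions up, and beta-catenin CTNNB1 (-1.96, FDR 0.0313) had a region down. Regions up made up 43.6% of this list's regions in 10A and 27.7% in DCIS, beside the 43.6% and 23.6% of all regions. Those down made up 2.41% in DCIS, beside 4.86% of all regions. The 10 epithelial factors that oppose EMT had 5 genes with a region up in 10A, where 18.2% of their regions were up, the lowest share of these lists, with KLF5 (0.89, FDR 0.00106) and OVOL2 (0.70, FDR 0.00135) first. In DCIS 7 of the 10 had a region up and 0 one down, led by the splicing regulator ESRP1 (2.13, FDR 1.51e-06) and TP63 (2.43, FDR 1.48e-05), the basal epithelial transcription factor. Of their DCIS regions 25.5% were up, near the 23.6% of all regions.

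The labelled cell type was read from markers over input. Of 6 basal mammary epithelial markers, 4 were marked in both 10A groups (KRT5, ITGB4, EGFR and LAMB3) and 5 in both DCIS groups. Luminal markers were marked at 3 to 5 of 6 in the 4 groups, ESR1, GATA3 and KRT8 in each, although both lines are described as lacking the estrogen receptor. Fibroblast markers, the cell type closest to the mesenchymal genes, were marked at 2 of 6 in 10A shCTRL (DCN and LUM) and 4 of 6 in 10A shANCO1 (with COL1A1 and PDGFRB), and at 0 and 1 of 6 in DCIS. In the direct comparison, 3 of 6 fibroblast markers had a region up in 10A, where 74.3% of all genes did. Of their 21 regions 5 were up (23.8%, against 43.6% of all regions). Among the other marker lists in 10A, regions up made up 60.9% for basal, 48.4% for luminal, 54.5% for immune and 47.4% for endothelial markers, beside 57.5% for the members and 43.6% of all regions, and 0 were down. In DCIS the regions up were 12 of 50 for basal, 9 of 30 for luminal, 2 of 5 for fibroblast, 2 of 12 for immune and 3 of 25 for endothelial markers. Regions down in DCIS made up 36.0% for the endothelial list, all 9 of them among the 20 regions of PECAM1 (lowest FDR at -2.96, FDR 2.73e-07), 3.33% for luminal markers and 0 for the other 3 lists. Immune markers were marked at 3 or 4 of 6 and endothelial markers at 2 or 3 of 5. The tables name a gene up to 10000 bases away. For no marker list were marked regions on the gene counted apart from those beside it. The part of these markers in the member values was not tested. ANKRD11 itself, whose RNA the hairpin targets, had a log2 fold change of 0.66 within 1 kb of its start site in 10A (FDR 0.0764) and -0.07 in DCIS (FDR 0.975), which is chromatin and no check of the knockdown.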

How the data were processed

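H3K27Ac was measured by ChIP-seq in 24 libraries of 10A and DCIS cells. Per the labels and the study's methods, the authors aligned reads to GRCh38 with BWA, removed duplicates with SAMtools and tested windows with csaw, and the deposited tables give for each region the number of windows, a p-value, an FDR, a direction and a log2 fold change. Thus the deposited tables hold the authors' own comparisons and no counts per library, so depth and the spread between replicates are unknown, and all values here are the authors'. Regions were assigned to a gene when its symbol stood in the overlap, left or right column. Samples were grouped by the titles in the labels, and each table by the groups in its name. All 10 members were named, as were the 2 genes of each other list with the lowest FDR in each direction and line, FOXC2 being added after its values were seen. Distances were taken from GENCODE release 44, sequences from hg38 and from RefSeq promoter windows, which matched 6 of the 10 members. Python 3.11.15, pandas 2.3.3, pysam 0.24.0 and matplotlib 3.10.9 were used, and the row selection and motif search were tested on simulated data. Alternatives were an FDR of 0.01 or 0.1, a minimum change, a minimum of 5 windows and other gene assignments. A few list genes and element sequences are not reported here. The members and lists were chosen with earlier results of these data known.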

Additional observations from a re-analysis of the deposited data

How the results depend on the processing

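The 10 counts of member regions were recomputed under 54 alternatives, of which 43 stayed within 1.5 times the reported count and 11 did not. Several of the 43 could not have moved. The count of 0 regions down in 10A cannot fall under a stricter setting. The highest FDR over input was 1.46e-08 in 10A shANCO1, 3.92e-08 in 10A shCTRL and 1.24e-08 in DCIS shANCO1. An FDR under 0.01 therefore removed nothing in those groups. Requiring at least 1 log2 unit from the table's median left 2 regions up in 10A in place of 23. An FDR under 0.01 left 3 regions up and 1 down in DCIS in place of 5 and 4, and the regions down in DCIS with at least 5 windows numbered 2. For marking over input, an FDR under 1e-10 left 17 of 26 regions in 10A shANCO1, 5 of 12 in 10A shCTRL and 3 of 6 in DCIS shCTRL. A minimum of 5 windows left 13, 2, 2 and 1 regions in 10A shANCO1, 10A shCTRL, DCIS shANCO1 and DCIS shCTRL. These filters keep fewer regions by construction. No paired analysis was possible because the tables hold 1 value a region and none per library, and for the same reason no library could be left out. Depth is unknown, so a region absent from a table may be below detection.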
